A study of Mus musculus with 32 samples.

Results

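The 8 genes described here encode the enzymes that turn a prohormone into its active peptides: Pcsk1, Pcsk2, Furin and Pcsk7 (the cleaving proteases), Cpe and Cpd (the carboxypeptidases that trim the cut ends), and Pam and Qpct (the enzymes that modify peptide termini). They were taken by symbol from a list of named genes and are 8 of 21945 genes in the RNA table. MIN6, a mouse insulinoma line with glucose-stimulated insulin release, was cultured for 24 hours at either 5.5 mM or 25 mM glucose to ask how sustained high glucose changes mRNA translation in β cells. The cells are labelled wild type, all of them were grown in serum-containing medium and received cycloheximide just before harvest, and the line, a tumor line usually grown at the higher concentration, lacks the other cells of an islet. The labels give 8 biological replicates per concentration in 2 batches (replicates 1 to 4 and 5 to 8). Each culture gave a library of ribosome-protected footprints (RPFs, the stretches of mRNA covered by a ribosome) and a library of polyadenylated RNA.

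In a β cell, proinsulin enters the secretory granule and is cut after pairs of basic residues by the convertases PC1/3 (the product of Pcsk1) and PC2 (the product of Pcsk2). Carboxypeptidase E, encoded by Cpe, then removes the basic residues left at the cut ends. Furin and PC7 (Pcsk7) belong to the same protease family but act in the trans-Golgi network and along the constitutive route, where carboxypeptidase D (Cpd) takes the place of carboxypeptidase E. Pam encodes the copper-dependent enzyme that amidates peptides ending in glycine, such as amylin, and Qpct encodes glutaminyl cyclase, which forms the pyroglutamate found at the start of some peptides.

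The Ensembl identifiers matched a RefSeq entry on GRCm38.p6 for all 8 genes. Pcsk1 (ENSMUSG00000021587) lies on chromosome 13 from 75089420 to 75134861, Pcsk2 (ENSMUSG00000027419) on chromosome 2 from 143546133 to 143816284 and Pam (ENSMUSG00000026335) on chromosome 1 from 97821091 to 98095853. RefSeq promoter windows, from 250 bases before to 50 bases after a transcript start, were found for 6 of the 8 genes, all but Cpe and Qpct. They were searched on both strands for the cAMP response element TGACGTCA, to which factors of the CREB family bind, and for its shorter core TGACG, which is part of it. The full element was in the window of Pcsk1 and in those of no other member, and 1.79% of 32851 windows of the same length hold it. The core was in the windows of Pcsk1, Pcsk2 and Furin, against 20.8% of all windows. The E-box CACGTG (7.15% of all windows) and the unfolded-protein-response core TGACGTGG (0.676%) were in none of the 6 genes' windows. Stretches of 30 bases around the matches before the transcript start are shown. They were picked for display with the responses of Pcsk1 and Pcsk2, the granule convertases, known, and no relation of motif to response was tested. The Pcsk1 window, chr13:75089607-75089906, starts inside the span of the gene given above. The printed Pcsk1 stretches therefore lie within that span, before a transcript start further along it. Capitals mark the match, which reads CGTCA where the core is on the other strand, and a match is a string of letters and not a measured binding site.
Pcsk1, full element, chr13:75089768-75089797, plus strand: ccaggtagatcTGACGTCAagagatggctt
Pcsk1, core, chr13:75089795-75089824, plus strand: ctttcgtcgattTGACGtgtaaacactcat
Pcsk2, core, chr2:143546087-143546116, plus strand: ctggcgggcgcgCGTCAcccgggctggcgc
Furin, core, chr7:80405545-80405574, minus strand: acgagaaagcccCGTCAcgctgggatccag

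Total counts ranged from 392529 to 7012999 in the RPF libraries at 5.5 mM and from 363569 to 3283379 at 25 mM. In RNA they ranged from 3014785 to 17542565 at 5.5 mM and from 16423766 to 33623502 at 25 mM. Of the RNA libraries at 5.5 mM, 5 stood apart (replicates 2, 4, 6, 7 and 8). They had 3014785 to 6907849 counts, and insulin (Ins1 and Ins2) took 0.159% to 1.09% of them, against 3.98% to 8.08% in the other 11 RNA libraries. Their TMM factors were 0.429 to 0.660, against values above 1 in the other 11. Lars2, a mitochondrial tRNA synthetase gene, was at 6250 to 66966 CPM in them before TMM scaling, against 656 to 7287 CPM in the remaining 3 and 426 to 2001 CPM at 25 mM. The part of these differences in the RNA and TE results was not tested. The RPF library labelled 25 mM replicate 8, set apart from earlier results of these data, was within the range of its batch in TMM factor (0.984) and not low in depth (732164 counts). It holds the lowest RPF value of Pcsk1 and Pam at 25 mM, so leaving it out raises their change by construction. The main results are given with and without these 6 libraries. Each of 13 β cell markers was detected in both library types. Of 16 markers of other pancreatic cell types, the acinar genes Amy2a5 and Prss1 had no count in any library. The summed level of those 16 markers, mostly Krt7 and Gcg, was 928 to 1229 CPM in RPFs at 5.5 mM and 1139 to 1749 CPM at 25 mM. Their RNA sum ranged from 60.9 to 794 CPM in the low-glucose libraries, below the 809 to 1032 CPM of the high-glucose ones without overlap, and their part in the results was not tested.

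High glucose raised the footprints of 2 of the 8 enzymes, Pam and Pcsk1, and lowered those of none. In edgeR's quasi-likelihood test, fitted with a batch term and called at a Benjamini-Hochberg adjusted p under 0.1, 15.5% of the 8709 genes tested were higher and 15.3% were lower. Levels below are CPM (counts scaled to a common library total) after TMM scaling, changes are log2 ratios of 25 over 5.5 mM with their standard error (SE), and all 8 members passed the filter on low counts. The median log2 fold change of the members in RPFs was 0.05, against -0.01 for all genes tested. In such bulk libraries, fewer translating ribosomes per cell and fewer cells that make an enzyme cannot be told apart. No member had every 25 mM RPF library outside the range of the 5.5 mM libraries. In all genes 0.574% lay wholly above and 0.264% wholly below. Pam and Pcsk1 were also the members called higher without the library labelled 25 mM replicate 8 (17.7% of genes higher, 17.0% lower) and without the 5 cultures of the shallow RNA libraries (6.26% higher, 4.76% lower).

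Pcsk1 RPFs had a lowest value of 965, a median of 1182 and a highest value of 1404 CPM over the 8 libraries at 5.5 mM. At 25 mM the lowest was 1289, the median 1742 and the highest 2212 CPM. All but replicate 8 of the 25 mM libraries were above every 5.5 mM library, replicate 6 only narrowly (1405 against 1404 CPM), and without TMM scaling 5 of 8 were. The mean rose from 1161 ± 157 to 1766 ± 366 CPM (SD, n = 8), a 1.50-fold increase (log2 0.59, SE 0.10, adjusted p = 1.0e-04, edgeR). The increase was 0.76 (SE 0.15, adjusted p = 0.0029) in the first batch alone, where levels were 1810.0 to 2212 CPM at 25 mM against 1015 to 1404 CPM at 5.5 mM. In the second batch alone it was 0.43 (SE 0.14) and missed the threshold (adjusted p = 0.102). Without the library labelled 25 mM replicate 8 it was 0.63 (SE 0.09, adjusted p = 1.2e-05).

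Pcsk2, whose product acts beside PC1/3 in the granule, did not share this increase. Its RPFs had a lowest value of 2718, a median of 3432 and a highest value of 4026 CPM at 5.5 mM, and of 2639.7, 3134 and 3662 CPM at 25 mM. The groups overlapped, with 2 libraries at 25 mM below every 5.5 mM library and none above. The log2 fold change was -0.13 (SE 0.09, adjusted p = 0.318). The spread within a group was mainly between batches, since the first batch held 3555 to 4026 CPM at 5.5 mM and the second 2718 to 3309 CPM.

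Pam had the largest RPF increase of the 8 genes. Its RPFs had a lowest value of 333, a median of 487 and a highest value of 556 CPM at 5.5 mM, and a lowest value of 473, a median of 787 and a highest value of 977 CPM at 25 mM. The lowest 25 mM value was that of replicate 8, and the other 7 libraries, at 750.2 CPM or more, were all above the 5.5 mM range. The mean went from 468 ± 82.3 to 780.2 ± 145 CPM (SD, n = 8), a 1.67-fold increase (log2 0.74, SE 0.12, adjusted p = 1.1e-04, edgeR). It was called in each batch alone, with 0.88 (SE 0.16, adjusted p = 0.0023) in the first and 0.61 (SE 0.17, adjusted p = 0.066) in the second, and was 0.82 (SE 0.10) without replicate 8 at 25 mM.

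The RPFs of the other 5 enzymes were not called in the main fit with all libraries. Cpe, the main granule carboxypeptidase, had 5227 ± 535 CPM at 5.5 mM and 5535 ± 329 CPM at 25 mM (log2 0.08, SE 0.09). Cpd, its counterpart in the trans-Golgi network, had 401 ± 53.2 and 352 ± 45.8 CPM (log2 -0.19, SE 0.09, adjusted p = 0.150). Without the library labelled 25 mM replicate 8, where Cpd was at its 25 mM maximum of 422 CPM, its decrease of 0.24 on the log2 scale was called (adjusted p = 0.034), as was one of 0.22 with library size scaling (adjusted p = 0.097). The decrease of Cpd was also called with a replicate block, which pairs libraries by replicate number.

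Furin RPFs were at 117 ± 31.7 CPM in 5.5 mM and 98.8 ± 21.1 CPM in 25 mM (log2 -0.23, SE 0.12, adjusted p = 0.179). Those of Pcsk7 were at 21.0 ± 5.35 and 20.5 ± 5.25 CPM, and those of Qpct at 62.0 ± 17.0 and 62.9 ± 22.4 CPM (each SD, n = 8). The last 2 rested on few footprints, with 5 to 119 counts per library for Pcsk7 and 13 to 619 for Qpct, so that small differences were not detectable at this depth. In Pcsk7 the SE of the log2 fold change was 0.16 and in Qpct 0.13.

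**Figure D1:**
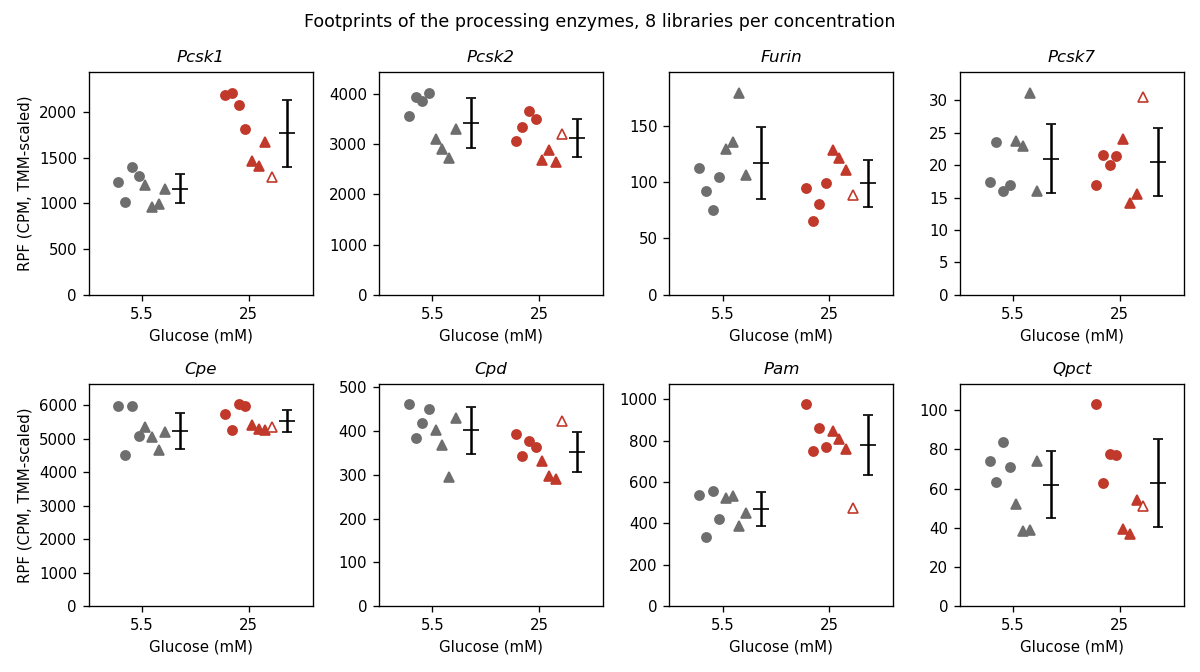
RPF levels of the 8 enzymes in CPM after TMM scaling (vertical axis, from 0) at 5.5 and 25 mM glucose, with 1 symbol per library, circles for the first batch, triangles for the second, an open triangle for the library labelled 25 mM replicate 8, and bars for mean ± SD (n = 8). Pcsk1 and Pam lie higher at 25 mM in all libraries but that one, and the groups of the other 6 genes overlap.

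In RNA, Pcsk1 and Qpct were higher at 25 mM and no member was lower, at an adjusted p under 0.01. Of the 12365 genes tested, 16.4% were higher and 24.2% lower. The median log2 fold change of the members was 0.60, against 0.12 for all genes. No member had every 25 mM RNA library outside the 5.5 mM range, as 9.59% of genes did above it and 5.18% below it. Without TMM scaling, all 8 libraries at 25 mM were above all 8 at 5.5 mM for Pcsk1 and Pam (10.2% of genes above, 3.23% below). These values depend on the 5 libraries at 5.5 mM that stood apart, and without them the 2 genes called higher were Pcsk1 and Pam (10.4% of 12918 genes higher, 19.2% lower). In the first batch alone none of the 8 was called, and no gene of 12470 was, although 3526 genes had an unadjusted p under 0.05.

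Pcsk1 RNA had a lowest value of 75.4, a median of 241 and a highest value of 460.4 CPM at 5.5 mM, and of 435, 561 and 684 CPM at 25 mM. The lowest 25 mM library was thus below the highest one at 5.5 mM, and the other 7 were above the whole 5.5 mM group. The mean rose from 235 ± 123 to 563 ± 104 CPM (SD, n = 8), a 2.40-fold increase (log2 1.27, SE 0.34, adjusted p = 0.0048, edgeR). Without the 5 libraries the increase was 1.88 (SE 0.37, adjusted p = 0.0023), from 3 libraries at 75.4 to 266 CPM. The call was lost when replicate 2, 5, 6, 7 or 8 was left out (adjusted p = 0.010 to 0.020).

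Qpct RNA was near 0 in the libraries of lowest depth, with 0 to 5 counts each, or 0 to 1.69 CPM. The remaining 3 of that group held 2.10, 4.91 and 19.8 CPM. Levels at 25 mM were 18.4 to 24.9 CPM with a median of 21.8 CPM. Of the 25 mM libraries, 6 were above every 5.5 mM library. The log2 fold change was 2.69 (SE 0.66, adjusted p = 0.0027). Without the 5 libraries it was 1.44 (SE 0.49) and no longer called (adjusted p = 0.027), nor was it without replicate 5, 6 or 8 (adjusted p = 0.010 to 0.012) or with library size scaling (adjusted p = 0.012). The RPFs of Qpct showed no comparable difference.

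Pam RNA showed the strongest dependence on those libraries. It had 505 to 1200.2 CPM in the 5, while the remaining 3 of the 5.5 mM group held 160.1 to 271 CPM and the 25 mM group 467 to 584 CPM. The 25 mM group was therefore above all of the 3 deeper libraries and below 4 of the 5 shallow ones. With all libraries the log2 fold change was -0.16 (SE 0.37, adjusted p = 0.716), and without the 5 it was 1.23 (SE 0.17, adjusted p = 5.2e-04). Scaling by library size alone moved the median RNA change of all genes by 0.70, and Pam then stood at 0.98 (adjusted p = 0.0018), which is 0.17 above that median, against 0.29 below it with TMM. Pcsk1 was 1.46 above the median with library size scaling and 1.14 above it with TMM.

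Pcsk2, Furin and Pcsk7 moved the other way between those sets of libraries. Pcsk2 RNA was at 717 to 938 CPM in the 5 shallow libraries, against 1229 to 1265 CPM in the remaining 3 of that group and 1159 to 1391 CPM at the higher concentration. Its log2 fold change was 0.34 (SE 0.25) with all libraries and -0.01 (SE 0.11) without the 5. Pcsk7 RNA was at 6.95 to 15.5, 21.9 to 35.1 and 22.4 to 32.4 CPM in the same order, and its log2 fold change went from 0.67 (SE 0.27, adjusted p = 0.043) to 0.03 (SE 0.11).

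Furin RNA had 21.2 to 53.1 CPM in the 5 libraries, against 37.8 to 132 CPM in the remaining 3 and 85.5 to 139 CPM at the higher concentration (log2 0.96, SE 0.32, adjusted p = 0.018). Without the 5 it was 0.49 (SE 0.22, adjusted p = 0.080), and without replicate 3, whose 5.5 mM library held the 132 CPM, it was called (adjusted p = 0.0043). Cpd RNA went from 93.7 ± 31.0 to 136 ± 20.3 CPM (log2 0.53, SE 0.22, adjusted p = 0.044) and Cpe RNA from 2556 ± 1214 to 2976 ± 299.7 CPM (log2 0.22, SE 0.35), neither past the threshold of 0.01. Without the 5 libraries Cpd was at 0.83 (SE 0.26, adjusted p = 0.020) and Cpe at -0.14 (SE 0.18). With library size scaling Cpd was called at 1.42 (adjusted p = 0.0012), which is 0.60 above the median of all genes.

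**Figure D2:**
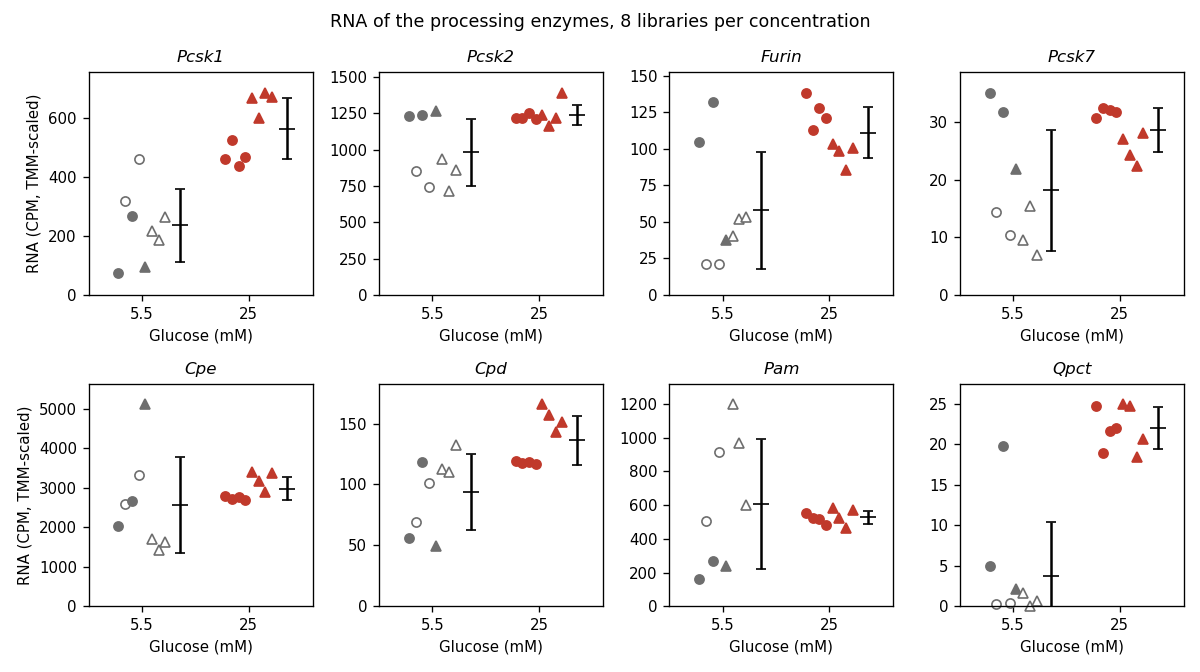
RNA levels of the 8 enzymes in CPM after TMM scaling (vertical axis, from 0) at 5.5 and 25 mM glucose, with circles and triangles for the first and second batch, open symbols for the 5 RNA libraries of lowest depth and bars for mean ± SD (n = 8). The open symbols lie above the other 5.5 mM libraries for Pam (505 to 1200.2 against 160.1 to 271 CPM) and below them for Pcsk2, Pcsk7 and Qpct.

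Translation efficiency (TE), the RPF level relative to the RNA level of a gene, was compared through the library type by glucose interaction, with all 32 libraries in 1 model. At the threshold of 0.1, 28.8% of 8637 genes had a higher TE and 32.2% a lower TE. Among the enzymes Pam was higher, and Qpct, Furin, Cpd and Pcsk2 were lower. Their median log2 change was -0.65, against -0.20 for all genes. Without the 6 libraries that stood apart, 5 were lower (Qpct, Pcsk1, Cpd, Furin and Pam) and none higher (24.3% of 9165 genes higher, 28.8% lower). Qpct, Cpd and Furin were thus called lower in both analyses, which share libraries. The share of all genes called lower in both was not counted. With the culture as a block, since the RPF and RNA libraries of a number come from the same culture, none was higher and Qpct, Furin, Cpd, Pcsk1 and Pcsk7 were lower (24.5% of genes higher, 38.0% lower). The first batch alone called none of the 8, and of 10302 genes it called 567 higher and 11 lower.

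The TE of Qpct at 5.5 mM, as log2 of RPF over RNA CPM with 0.5 CPM added to each, had a lowest value of 2.05, a median of 5.19 and a highest value of 6.38 over 8 cultures. At 25 mM the lowest was 0.57, the median 1.62 and the highest 2.04. All 8 cultures at 25 mM were below all 8 at 5.5 mM, as they were in 4.16% of genes tested, with 1.07% wholly above. The change was -2.54 (SE 0.63, adjusted p = 0.0016) and, without the 6 libraries, -1.41 (SE 0.44, adjusted p = 0.013). Where the RNA count was near 0 this TE was set largely by the added 0.5 CPM.

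Furin TE had a median of 1.75 (-0.80 to 2.25) at 5.5 mM and of -0.23 (-0.78 to 0.37) at 25 mM. The ranges overlapped through 2 cultures of the first batch at 5.5 mM, replicates 1 and 3, whose RNA libraries were not among the shallow ones. The 5 cultures with a shallow RNA library lay at 0.99 to 2.25 and the other 3 at -0.80 to 1.76. The change was -1.19 (SE 0.36, adjusted p = 0.0068), and -0.66 (SE 0.24, adjusted p = 0.029) without the 6 libraries. Cpd TE had a median of 1.98 (1.41 to 3.03) at 5.5 mM and of 1.51 (0.92 to 1.71) at 25 mM, with 3 of 8 cultures at 25 mM below every one at 5.5 mM. The change was -0.72 (SE 0.24, adjusted p = 0.014), and -1.07 (SE 0.24, adjusted p = 0.0016) without the 6.

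Pcsk1 TE fell short of the threshold with all libraries (log2 -0.68, SE 0.35, adjusted p = 0.102). It had a median of 2.27 (1.50 to 4.02) at 5.5 mM and of 1.62 (0.94 to 2.26) at 25 mM. Without the 6 libraries it was lower (log2 -1.25, SE 0.31, adjusted p = 0.0031). It was also called with the culture block (-0.84, SE 0.40, adjusted p = 0.083) and when replicate 1, 2, 3 or 4 was left out (adjusted p = 0.043 to 0.095). Library size scaling (-1.73, adjusted p = 2.6e-04, edgeR), the replicate block, no filter and limma called it too. DESeq2 size factors (adjusted p = 0.210, edgeR), DESeq2's Wald test and the fit with no batch term did not. The Pcsk1 TE change was 0.00 (SE 0.56) in the first batch alone and -1.39 (SE 0.37, adjusted p = 0.0053) in the second, a difference between batches that was not tested.

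The TE of Pam had the opposite sign in the 2 analyses. It was 0.90 (SE 0.39, adjusted p = 0.053) with all libraries and -0.41 (SE 0.19, adjusted p = 0.087) without the 6, both past the threshold of 0.1. At 5.5 mM the 5 cultures with a shallow RNA library lay at -1.33 to -0.43 and the other 3 at 1.04 to 1.74, with the 25 mM cultures between them at -0.27 to 0.82. Library size scaling, which moved the median TE change of all genes by -0.72, gave Pam -0.28 (adjusted p = 0.320), or 0.64 above the median. Leaving out replicate 2, 4, 6 or 7 took the adjusted p to between 0.104 and 0.175, and with the culture block the change was 0.65 (SE 0.45, adjusted p = 0.220).

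Of the remaining 3, Pcsk2 TE had a log2 change of -0.46 (SE 0.23, adjusted p = 0.092) with all libraries and of -0.15 (SE 0.12, adjusted p = 0.323) without the 6, and the call was lost when any replicate but 1 or 3 was left out (adjusted p = 0.114 to 0.193) or the culture was a block (adjusted p = 0.164). Pcsk7 TE had a log2 change of -0.62 (SE 0.33, adjusted p = 0.107) with all libraries and -0.03 (SE 0.20) without the 6, and was called without replicate 1 or 3 (adjusted p = 0.062 and 0.063) and with the culture block (-0.76, SE 0.32, adjusted p = 0.055). Library size scaling (-1.26, adjusted p = 0.049, edgeR), the replicate block and limma called it too, and DESeq2 size factors did not (adjusted p = 0.147, edgeR). Cpe TE had a log2 change of -0.13 (SE 0.31) with all libraries and of 0.23 (SE 0.17) without the 6, not called in either.

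**Figure D3:**
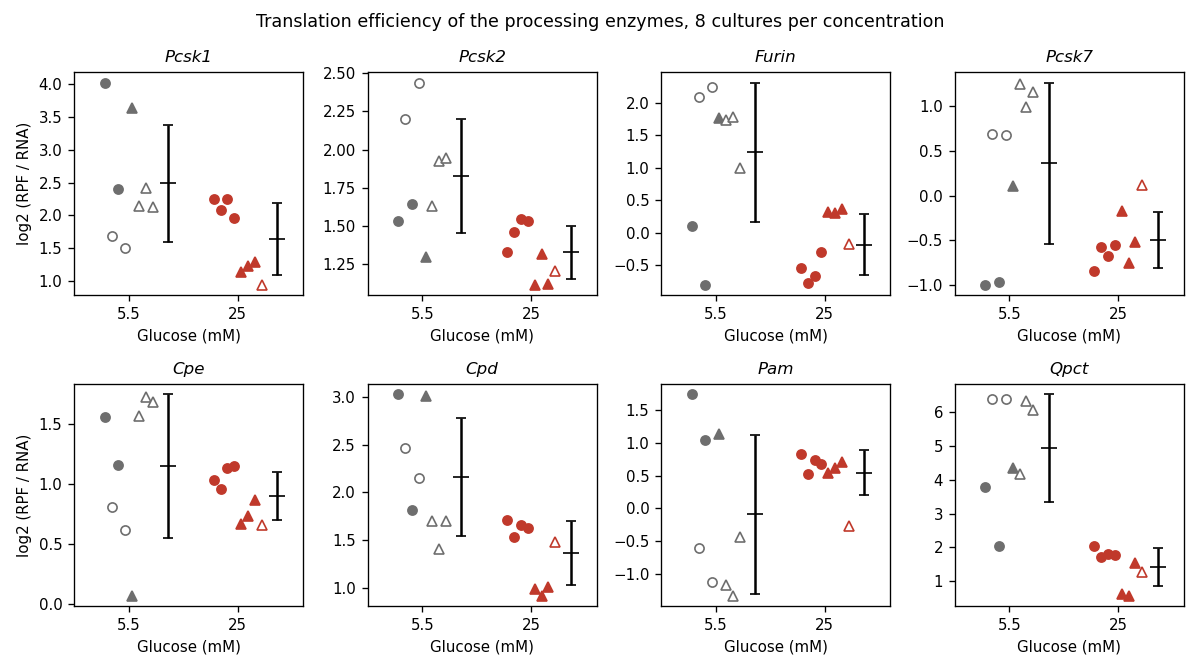
TE per culture (vertical axis, the log2 ratio of RPF to RNA level after adding 0.5 CPM to both), for the 8 enzymes at 5.5 and 25 mM glucose, with circles and triangles for the first and second batch and bars for mean ± SD (n = 8). Open symbols are the cultures with 1 of the 6 libraries that stood apart, and for Pam the open ones at 5.5 mM (-1.33 to -0.43) lie below all 25 mM cultures and the filled ones (1.04 to 1.74) above them.

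**Figure D4:**
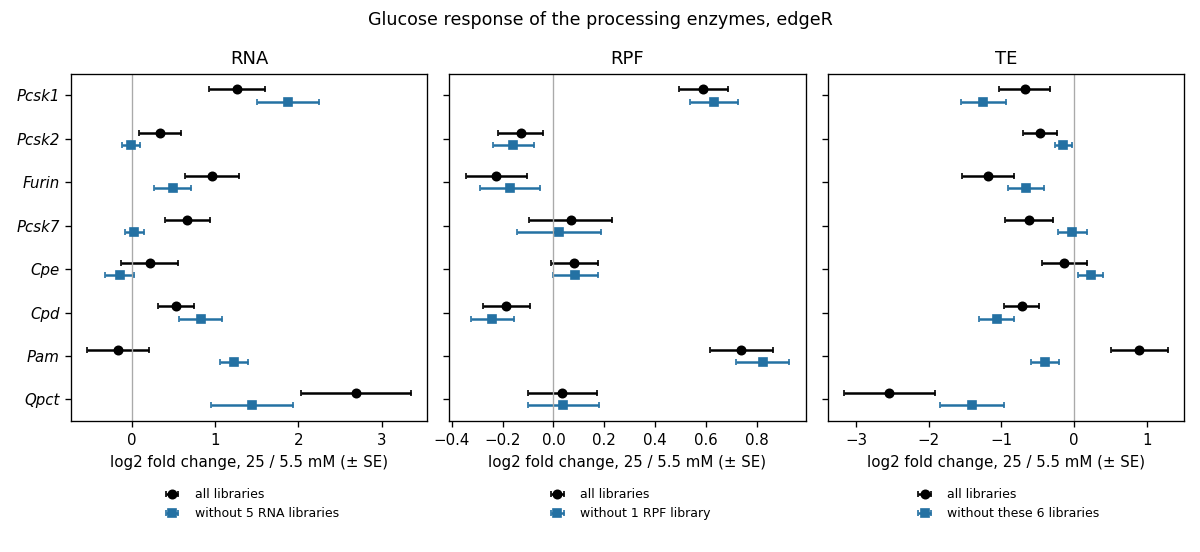
Log2 fold change of 25 over 5.5 mM (horizontal axis, bars ± SE, edgeR) of each enzyme in RNA, RPFs and TE, with all libraries (black circles) and without those that stood apart (blue squares). The panels leave out unlike numbers of libraries. Without 1 RPF library, the RPF value goes from 0.59 to 0.63 for Pcsk1 and from 0.74 to 0.82 for Pam. Without 5 RNA libraries Pam goes from -0.16 to 1.23 in RNA, and without these 6 libraries from 0.90 to -0.41 in TE. The RPF fit without the 5 cultures of the shallow RNA libraries is not plotted.

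Ratios of 2 genes within a library need no scaling between libraries. A ratio of counts also reflects the lengths of the genes, so it was compared only between glucose concentrations. Of 12 ratios (6 in each library type), 4 differed at an adjusted p under 0.05 in an exact two-sided permutation test within batches, 3 of them in RPFs. Each of the 4 sets Pcsk1 or Pam, called higher in the same libraries, over genes that were not called. They are therefore no separate support for those calls. The ratio of Pcsk1 to Pcsk2 footprints had a lowest value of 0.258, a median of 0.349 and a highest value of 0.387 at 5.5 mM, and of 0.401, 0.558 and 0.717 at 25 mM. All 8 libraries at 25 mM, replicate 8 included, were above all 8 at 5.5 mM. The ratio was 1.65-fold higher (log2 difference 0.72, exact permutation p = 0.00041, the smallest that 4900 arrangements allow, adjusted p = 0.0049), with 0.93 in the first batch and 0.51 in the second, where 4 against 4 libraries cannot give an exact p under 0.029.

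The ratio of Pam to Cpe footprints had a lowest value of 0.0738, a median of 0.0879 and a highest value of 0.106 at 5.5 mM, and of 0.0887, 0.144 and 0.170 at 25 mM. It was higher in 7 of 8 libraries than in any at 5.5 mM, with replicate 8 inside the 5.5 mM range (log2 difference 0.65, exact permutation p = 0.0012, adjusted p = 0.0073). The difference was 0.78 in the first batch and 0.51 in the second, and without the 5 cultures of the shallow RNA libraries it was 0.58 and no longer called (adjusted exact p = 0.064). Both enzymes act in the granule, carboxypeptidase E before Pam.

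The footprints of Pcsk1 per insulin footprint (Ins1 and Ins2 together, since the 2 genes are near copies) went from a median of 0.0102 (0.00793 to 0.0134) to one of 0.0154 (0.00939 to 0.0301). The log2 difference was 0.68 (exact permutation p = 0.0020, adjusted p = 0.0082), and 6 of 8 libraries at 25 mM were above the 5.5 mM range. The difference was 0.88 in the first batch and 0.48 in the second, and without those 5 cultures it was 0.49 and no longer called (adjusted exact p = 0.180). For Pcsk2 the median went from 0.0304 to 0.0274 per insulin footprint (log2 difference -0.04, adjusted exact p = 0.747) and for Cpe from 0.0458 to 0.0489 (log2 difference 0.18, adjusted exact p = 0.337), neither called. The ratio of Furin to Pcsk7 footprints had a log2 difference of -0.19 (adjusted exact p = 0.506).

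With all RNA libraries the ratio of Pcsk1 to Pcsk2 was the only one called, with a median of 0.246 at 5.5 mM and 0.457 at 25 mM (log2 difference 1.07, exact permutation p = 0.0094, adjusted p = 0.028). Its range at 5.5 mM, 0.0614 to 0.620, enclosed that at 25 mM, 0.347 to 0.562. The difference was 0.71 in the first batch, where no 25 mM library was above the 5.5 mM range, and 1.43 in the second, where all 4 were. Without the 5 shallow libraries the log2 difference was 2.13, and all 8 libraries at 25 mM were above the 3 left at 5.5 mM (exact permutation p = 0.013, the smallest that 75 arrangements allow, adjusted p = 0.040). The RNA ratios of Pam to Cpe (1.36) and Pcsk1 to insulin (2.35) were then called as well, at the same adjusted exact p. The call on Pcsk1 to Pcsk2 was lost when replicate 5, 6, 7 or 8 was left out (adjusted exact p = 0.056 to 0.099). The RNA ratios of Pcsk2 and Cpe to insulin differed by -1.19 (adjusted exact p = 0.063) and -1.23 (adjusted exact p = 0.052), were called when replicate 1 or 5 was left out (adjusted exact p = 0.017 to 0.046), and had values of 0.22 and 0.13 without the 5 libraries.

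**Figure D5:**
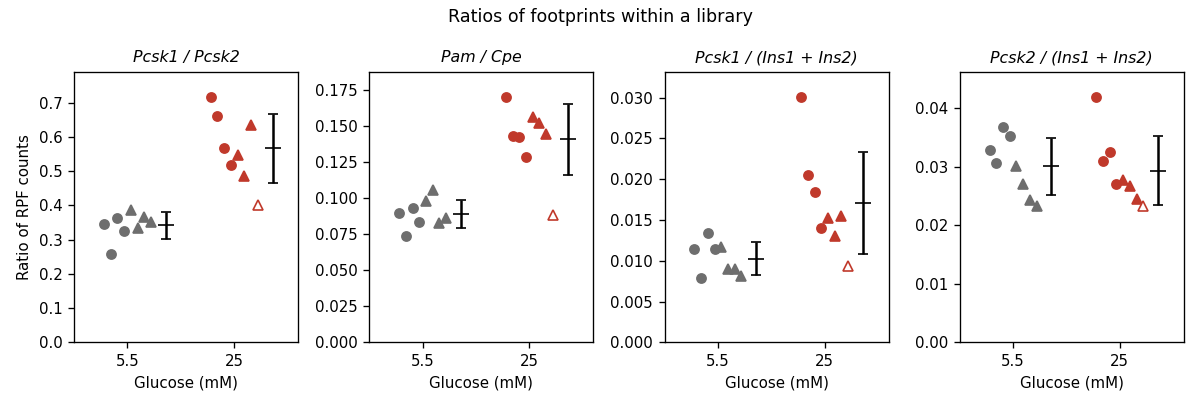
Ratios of footprint counts of 2 genes within an RPF library (vertical axes, from 0) at 5.5 and 25 mM glucose, with circles and triangles for the first and second batch, an open triangle for 25 mM replicate 8 and bars for mean ± SD (n = 8). The Pcsk1 to Pcsk2 ratio is at least 0.401 in every 25 mM library and at most 0.387 in every 5.5 mM library. The Pcsk2 to insulin ratio overlaps between the groups, with 1 library at 25 mM above the 5.5 mM range.

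Chaperones, inhibitors, cofactors and relatives of these enzymes were taken as a list of 27 genes, of which 20 were tested in RPFs. Of those, 4 rose and 4 fell, against 15.5% and 15.3% of all genes, and the median log2 fold change was 0.05, against -0.01, so the counts are near the background. Cpn1, a subunit of the plasma carboxypeptidase N, rose from 85.0 ± 19.2 to 133 ± 24.6 CPM (log2 0.64, adjusted p = 5.5e-04). Slc31a1, the importer of the copper that Pam needs, rose from 33.0 ± 10.0 to 57.4 ± 10.4 CPM (log2 0.69, adjusted p = 0.0015). Ece1, the endothelin-converting enzyme, and Serpini1, the serine protease inhibitor neuroserpin, rose by 0.42 (adjusted p = 0.0013) and 0.39 (adjusted p = 0.018).

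Among the genes that fell, Dpp4, which inactivates incretins, went from 390.0 ± 40.3 to 285 ± 84.8 CPM (log2 -0.44, adjusted p = 0.012). Mbtps1, the site-1 protease, had a log2 fold change of -0.38 (adjusted p = 0.0097) and Ctsd, the lysosomal protease cathepsin D, one of -0.27 (adjusted p = 0.016). The same 8 were called without the library labelled 25 mM replicate 8, with Mbtps2 lower as well. The binding partners of the granule convertases, chosen here after their values were seen, were not called in RPFs: Pcsk1n (proSAAS, an inhibitor of PC1/3) had a log2 fold change of 0.10 (SE 0.13) and Scg5 (7B2, the chaperone of PC2) one of 0.08 (SE 0.08).

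In RNA 7 of 21 tested helper genes were higher and 1 lower (16.4% and 24.2% of all genes), and 3 were higher and 4 lower of 22 without the 5 shallow libraries (10.4% and 19.2%). Ctsl, a cathepsin also found in granules, had an RNA change of 1.49 (adjusted p = 4.4e-04) and Pcsk4, a convertase of germ cells, one of -2.73 (adjusted p = 4.8e-05). Slc31a1, Ece1 and Serpini1 were higher and Pcsk4 lower in both analyses, which share libraries. The share of all genes called in both was not counted. Pcsk4 RNA was low throughout, with a mean of 11.6 CPM at 5.5 mM and 1.74 CPM at 25 mM. In TE 1 of 20 was higher and 9 lower (28.8% and 32.2% of all genes), among the latter Mbtps2, the site-2 protease (log2 -1.52, adjusted p = 0.0018), and Atp6ap2, an accessory protein of the proton pump (log2 -1.90, adjusted p = 0.0035). Without the 6 libraries 4 were higher and 8 lower (24.3% and 28.8%).

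A list of 28 precursors that these enzymes cleave was measured in the same way. Of 18 tested in RPFs, 8 rose and 2 fell, against 15.5% and 15.3% of all genes, and the median log2 fold change was 0.28, against -0.01. The largest increases were those of peptide precursors, Pdyn (prodynorphin, log2 1.56, adjusted p = 3.0e-06), Vgf (1.29, adjusted p = 2.8e-06), Gcg (proglucagon, 1.23, adjusted p = 1.4e-05) and Cck (cholecystokinin, 1.15, adjusted p = 1.1e-05). Pdyn went from 400.2 ± 122 to 1164 ± 293 CPM and Cck from 2004 ± 354 to 4492 ± 1256 CPM (SD, n = 8).

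Iapp, the precursor of amylin, rose from 9265 ± 1516 to 15291 ± 3036 CPM (log2 0.72, adjusted p = 1.3e-04). The granins Scg3 (0.43, adjusted p = 0.010) and Chgb (0.36, adjusted p = 0.044) and the neuropeptide gene Npy (0.33, adjusted p = 0.038) rose less. The insulin genes were not called, with log2 fold changes of 0.01 (SE 0.12) for Ins1 and -0.09 (SE 0.14) for Ins2. The 2 that fell are cell-surface receptors cut by furin-type proteases, Insr, the insulin receptor (-0.34, adjusted p = 0.033), and Notch1 (-0.38, adjusted p = 0.014). Other listed genes outside the peptide precursors went both ways and were not called (edgeR). Igf1r was at 0.22 (adjusted p = 0.188), Tgfb1 at 0.48 (adjusted p = 0.160) and Adam10 at -0.22 (adjusted p = 0.142).

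All 10 were also called without the library labelled 25 mM replicate 8, and Igf2 and Adam10 were then lower too. In RNA 4 of 21 precursors were higher and 4 lower (16.4% and 24.2% of all genes), and 6 were higher and 1 lower of 22 without the 5 shallow libraries (10.4% and 19.2%). Chga, the granin chromogranin A, was lower in RNA (log2 -2.50, adjusted p = 0.0037), as were Bdnf, a neurotrophin (-2.37, adjusted p = 5.3e-04), and Igf1r, the IGF-1 receptor (-1.15, adjusted p = 0.0031), and none of these 3 was called without the 5 libraries. In TE 4 of 18 were higher and 6 lower (28.8% and 32.2% of all genes), with Igf2, a growth factor precursor, at -1.49 (adjusted p = 0.0042). Without the 6 libraries 5 were higher and 4 lower (24.3% and 28.8%), Ins1 among the former and Igf2 among the latter. With all libraries the TE changes of Ins1 (log2 -0.59, adjusted p = 0.336, edgeR) and Ins2 (-1.11, adjusted p = 0.143) were not called.

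The genes whose footprints varied most like those of Pcsk1 over the 16 RPF libraries, by Pearson correlation of batch-centred log2 CPM among genes of above-median level, were Ssr1 (0.969), Arf4 (0.954) and Hsp90b1 (0.950). They encode a subunit of the complex at the ER translocon, a small GTPase of the Golgi and an ER chaperone. For Pam they were Mia3 (0.985), Cltrn (0.979) and Cntn1 (0.977), of which Mia3 serves the export of large cargo from the ER. All of these genes rose in RPFs, by 0.50 to 0.77 on the log2 scale, so the libraries share the glucose difference, and the coefficients are a description over libraries that also share depth within a batch.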

How the data were processed

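RPF and RNA libraries of MIN6 cells, 16 of each, were used. The deposited values are raw counts per gene. According to their methods, the authors aligned trimmed reads in 2 passes to the mouse genome (Ensembl release 102) with the XPRESSyourself pipeline, removed rRNA alignments and PCR duplicates, and counted reads on exons or truncated coding sequences of each protein-coding gene's longest transcript. Which of these served which library type, and the versions, are not given in the sources used here. GEO's processing notes name DESeq2.

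The software was R 4.3.3 (edgeR 4.0.16, DESeq2 1.42.0, limma 3.58.1) and Python 3.11.15. TMM factors were computed separately for RPF and RNA libraries, genes were filtered with filterByExpr, and 25 mM tested against 5.5 mM with the quasi-likelihood test, batch as a covariate, and Benjamini-Hochberg adjustment over all genes tested, called under 0.01 (RNA) or 0.1 (RPF, TE) after the study. SEs came from the F statistic. TE was the interaction of library type and glucose. Ratios were tested by permuting glucose labels within batch. The tests were tried on simulated counts with the same depths, the same gene proportions in every library apart from planted changes, and no batch effect. That trial does not cover the unlike composition of the 5 shallow RNA libraries. P-values measure the spread between replicates, and RPF depth limits what can be seen for genes of few counts.

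All 8 members are named. Of the lists of helpers and precursors, genes called in RPFs are named, and up to 4 otherwise called with the smallest p. Some genes that were not called are named beside them. A helper gene that enters the counts is not reported here. Members, lists and the alternatives without libraries that stood apart were chosen with earlier results of these data known. Without coding lengths, levels of different genes were not ordered. Also tried were scaling by library size or by DESeq2 size factors, leaving out the filter or the batch term, a replicate or culture block, DESeq2's Wald test, limma on TE, each batch alone and each replicate left out. The proteomics and islet data are not analysed here.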

Additional observations from a re-analysis of the deposited data

Results flagged for a closer look

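Among 48 groups of 8 values tested for a value far from the rest, 4 held one, and chance gives about 1 in 20. The Pam RPF level of 25 mM replicate 8 was 473 CPM, against 750.2 to 977 CPM in the other 7 libraries. The Pam log2 TE of the same culture was -0.27, against 0.52 to 0.82. In RNA of the same culture Pcsk2 was at 1391 CPM, against 1159 to 1253 CPM. The Qpct RNA level of 5.5 mM replicate 3 was 19.8 CPM, against 0 to 4.91 CPM in the other 7.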

How the results depend on the processing

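The RPF increase of Pam was called under every alternative run, and that of Pcsk1 under all but the second batch alone. Of the members' log2 fold changes under alternatives, 351 kept direction and side of the threshold, 40 lost a call, 27 gained one and 20 changed sign, and the cause was not tested. RNA calls of higher members fell to 1 with DESeq2 size factors or DESeq2's Wald test (which gave no adjusted p for Qpct) and to 0 in batch 1, and ranged from 0 to 3 with each replicate left out. RPF calls were 1 higher in batch 2. RPF calls were 1 lower (Cpd) with library size scaling, the replicate block or without the library labelled 25 mM replicate 8, and 0 to 1 with replicates left out. TE calls were 0 higher with library size scaling, no filter, the replicate block, the culture block, limma (pseudocount 0.5 or 0.1), batch 1 (also 0 lower) or without the 6 libraries, and 0 to 1 higher and 3 to 6 lower with replicates left out. Pam RNA was 0.98 with library size scaling, 0.052 with no filter, 0.089 with the replicate block, 0.17 in batch 1, 1.23 without the 5 RNA libraries and -0.34 to 0.045 with replicates left out. Pam TE was -0.28 with library size scaling and -0.41 without the 6. Signs also changed for Cpe (RNA -0.14 without the 5; RPF -0.045 without the 5 cultures; TE 0.062 in batch 1 and 0.23 without the 6), Pcsk2 RNA (-0.0090 without the 5), Pcsk1 TE (0.0024 in batch 1), Pcsk7 RPF (-0.041 in batch 2, -0.019 to 0.15 with replicates left out) and Qpct RPF (-0.18 in batch 2, -0.027 without the 5 cultures, -0.077 to 0.10 with replicates left out).

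Among log2 ratios, batch 1 gave Pcsk1:Pcsk2 0.71 (RNA) and 0.93 (RPF), Pam:Cpe 0.39 and 0.78, and Pcsk1:insulin 0.0082 and 0.88. Batch 2 gave Pcsk1:Pcsk2 1.43 (RNA) and 0.51 (RPF), Pam:Cpe 0.51 (RPF) and Pcsk1:insulin 0.48 (RPF). No ratio passed the adjusted threshold in a batch alone. Without the 5 cultures the RPF values were 0.58 (Pam:Cpe, call lost), 0.49 (Pcsk1:insulin, call lost) and -0.057 (Cpe:insulin). Without the 6 libraries the RNA values were 1.36 (Pam:Cpe), 2.35 (Pcsk1:insulin), 0.22 (Pcsk2:insulin) and 0.13 (Cpe:insulin). With replicates left out the RNA ranges were 0.82 to 1.32 (Pcsk1:Pcsk2), -0.54 to 0.030 (Pam:Cpe), -0.62 to 0.34 (Pcsk1:insulin), -1.47 to -0.99 (Pcsk2:insulin) and -1.58 to -0.88 (Cpe:insulin), and RPF Pcsk2:insulin ranged from -0.10 to 0.0080.

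Over all genes, RNA calls were 2032 higher and 2998 lower, against 2175 and 1341 with library size scaling, 2111 and 1906 with the replicate block, 0 and 0 in batch 1, and 1342 and 2480 without the 5 libraries, with 1022 to 2719 higher when replicates were left out. RPF calls were 1354 and 1334, against 197 and 97 in batch 2 and 609 and 463 without the 5 cultures, with 878 to 1599 lower when replicates were left out. TE calls were 2486 and 2783, against 1143 and 4336 with library size scaling and 567 and 11 in batch 1. Same-numbered cultures deviated together with correlations of -0.174 to 0.164 in RNA, where 1 of 8 fitted its own number best, and of 0.0085 to 0.468 in RPFs, where 6 of 8 did. The study states no pairing for these libraries, so the main fits and the ratio permutations did not pair by number. Any pairing among the RPF libraries is therefore not used there. With the replicate block Pam and Pcsk1 were called higher in RPFs and Cpd lower.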

Other observations

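Qpct footprints were at 38.4 to 83.7 CPM in the RPF libraries at 5.5 mM, while 5 of the 8 RNA libraries of these cultures held 0 to 5 Qpct counts each. At 25 mM the footprints were at 36.8 to 103 CPM and the RNA at 440 to 1114 counts, in deeper libraries. After TMM scaling, Qpct RNA was at 0 to 1.69 CPM in the 5 shallow libraries. It was at 2.10 to 19.8 CPM in the remaining 3 at 5.5 mM and 18.4 to 24.9 CPM at 25 mM.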
